A study of Mus musculus with 5 samples.

Results

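AMPA receptors are the glutamate-gated ion channels that carry most fast excitatory transmission in the brain, and the genes for their subunits and auxiliary proteins were examined here in the mouse dentate gyrus (DG). The group was defined by symbol: the 4 pore-forming subunits Gria1, Gria2, Gria3 and Gria4, the 3 transmembrane AMPA receptor regulatory proteins (TARPs) Cacng2, Cacng3 and Cacng8, the cornichons Cnih2 and Cnih3, and Shisa9, which encodes CKAMP44. All 10 symbols were found among the 23420 in the data, and all 10 were among the 13550 expressed genes, which had a mean value of at least 5. In the DG, entorhinal axons release glutamate onto granule cells, whose AMPA receptors are tetramers of GluA subunits. TARPs and cornichons bind these tetramers in the membrane, promote their export and surface delivery, and slow their gating. The GluA2 subunit, made from edited Gria2 RNA, keeps the channel nearly impermeable to calcium.

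The study compared running-dependent and running-independent environmental enrichment (EE) in wild-type CD1 mice, an outbred strain, which were males according to the methods and had an age of 4 months in the labels and of 3 months in the methods. Each group was 1 library of pooled DG RNA after 4 weeks of housing. LD mice were housed singly with a disk that could not turn, RUN mice singly with a disk that could, and CE (complex environment) mice in groups of 3 with a locked disk and tunnels that were moved daily, so that in CE the company and the tunnels cannot be told apart. The LD, CE and RUN pools each held 8 mice. L-RUN and H-RUN each held 4 mice, the shortest and the longest runners of the RUN pool, and RUN therefore repeats their RNA. No group had a replicate library, so that no p-value can be given, and differences between mice were not measured.

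The values are regularized log (rlog) values, which are log2 read counts that the authors normalized over all 5 libraries and shrank towards the mean of each gene. Differences are between rlog values, and a gene is called changed here once its difference reaches 0.3 in size, which is a level at least 1.23 times as high or a decrease of the same size on the log2 scale. RUN, set against a 1:1 mix of its L-RUN and H-RUN parts, gives the only estimate of error, a technical SD of a difference between 2 libraries. It was 0.0365 over all expressed genes and 0.0222 to 0.0417 in the expression deciles of the 10 genes. Sequencing depth is unknown. All 6 granule cell markers were expressed, with rlog values in the 5 libraries between 11.36 and 13.08 for Prox1, C1ql2, Dsp, Lct and Calb1 and between 8.68 and 8.87 for Tdo2. Markers of leptomeningeal fibroblasts differed between libraries. Their median difference from LD over 7 genes was 0.094 in CE, 0.350 in RUN, 0.627 for L-RUN and -0.036 for H-RUN. In H-RUN, Ogn (-0.677) and Dcn (-0.522) were called lower, and the others lay between -0.050 and 0.054. Markers of CA1 pyramidal cells, whose AMPA receptors hold several of the same proteins, are given below with the order of the libraries.

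The 4 pore-forming subunits are close relatives, and the stretch around the editing site of Gria2 is shown as an example of a part where the counted sequences are much alike. In Gria2, the codon that ADAR2 edits in the RNA (the Q/R site) lies at chr3:80706911-80706913 on the minus strand of GRCm38 (mm10), in exon 11 of 16, where the annotation has coding sequence. Below are the last 60 coding bases of the exon that holds this codon in each subunit, with the codon in capitals. They were read from the GENCODE M21 transcripts and lie at chr11:57243060-57243119 (plus strand, exon 11 of Gria1), chr3:80706888-80706947 (minus strand, exon 11 of Gria2), chrX:41610231-41610290 (plus strand, exon 11 of Gria3) and chr9:4464114-4464173 (minus strand, exon 12 of 17 of Gria4).
Gria1: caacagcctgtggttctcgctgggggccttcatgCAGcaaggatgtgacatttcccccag
Gria2: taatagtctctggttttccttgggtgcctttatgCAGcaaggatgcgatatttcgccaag
Gria3: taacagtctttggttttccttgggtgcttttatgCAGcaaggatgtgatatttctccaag
Gria4: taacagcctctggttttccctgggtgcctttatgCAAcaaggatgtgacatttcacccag
The genomic codon reads CAG in Gria1, Gria2 and Gria3 and CAA in Gria4, and each encodes glutamine. Over these 60 bases, Gria2 differed from Gria3 at 5 positions and from Gria1 at 13. Over the whole coding sequence, the identity between 2 subunits lay between 68.0% (Gria1 and Gria4) and 72.9% (Gria2 and Gria4). The longest run of identical bases in a pair of subunits was 41 bases, in Gria2 and Gria4. Among the TARPs coding identity was 66.6% to 72.3%, and Cnih2 and Cnih3 shared 77.1%. The read length and the handling of reads that match several genes are not given in the sources used here. Gene-level values do not show the share of edited RNA.

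Of the 10 AMPA receptor genes, 0 were called changed against LD in any of the 4 EE groups. Across all expressed genes, the same threshold called 0.598% of genes in CE, 1.31% in RUN and, by pool, 3.13% for L-RUN and 0.827% for H-RUN, so that a list of 10 genes with 0 calls is near this background. The differences of the 10 genes ranged from -0.108 to 0.100 in CE, from -0.152 to 0.088 in RUN, from -0.188 to 0.075 in L-RUN and from -0.076 to 0.172 in H-RUN. Their median was 0.009 in CE and -0.016 in RUN, with -0.027 for L-RUN and -0.042 for H-RUN, beside medians of all expressed genes between -0.004 and -0.001. Against LD, the median size of their differences was also close to that of all expressed genes, at 0.074 against 0.074 in L-RUN and 0.054 against 0.052 in H-RUN. Direct comparisons between EE groups likewise called 0 of the 10 genes, against 1.54% of expressed genes for H-RUN and L-RUN, 0.834% for RUN and CE, 1.89% for L-RUN and CE and 1.06% for H-RUN and CE. The AMPA receptor genes stood furthest from the expressed genes between H-RUN and L-RUN, where their median difference was 0.075 against 0.003 and the median size 0.089 against 0.055.

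**Figure D1:**
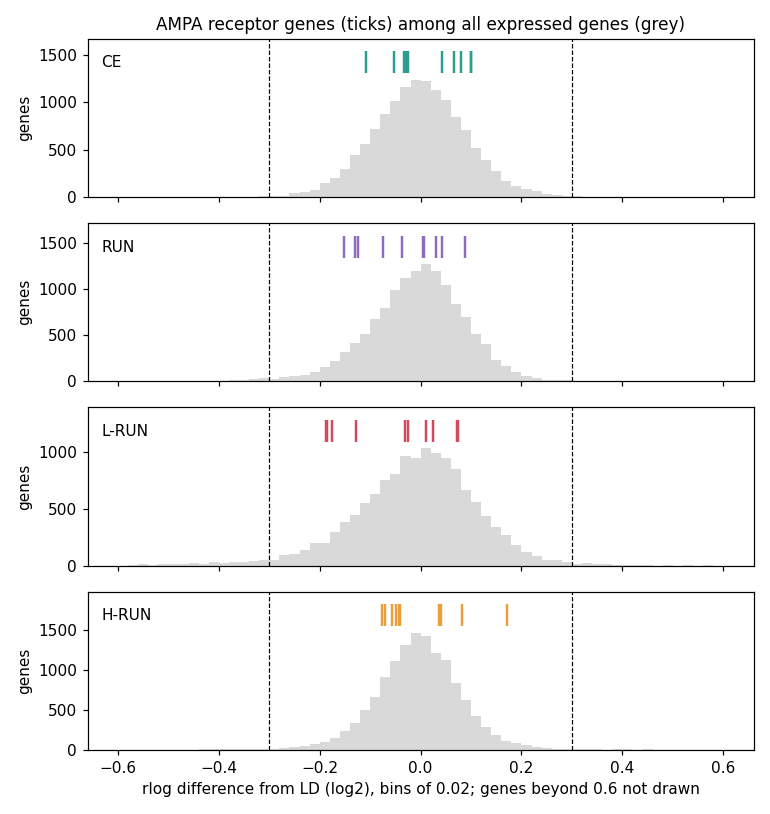
Distribution of the rlog difference from LD (log2, horizontal axis) over all expressed genes (grey bars, number of genes per bin) in each EE group, with the 10 AMPA receptor genes as coloured ticks. All ticks lie inside the dashed lines at a size of 0.3, between -0.188 and 0.172.

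Some differences below 0.3 in size were larger than the technical error. Against a limit of 2 technical SD, 6 of the 10 genes differed from LD in CE, 4 in RUN and, by pool, 6 for L-RUN and 4 for H-RUN. The same limit was passed by 40.6% of expressed genes in CE, 40.7% in RUN and, by pool, 49.5% for L-RUN and 34.5% for H-RUN, so that the 10 genes did so about as often as other genes. Between H-RUN and L-RUN, 6 of the 10 genes were higher in H-RUN and 1 was lower by over 2 technical SD, and 38% of expressed genes passed this limit in either direction. This limit reflects how repeatable a library is, not how mice differ. In the order of the 5 libraries for each gene, 9 of the 40 gaps between neighbours were over 2 technical SD, which means that most neighbouring libraries were not told apart.

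**Figure D2:**
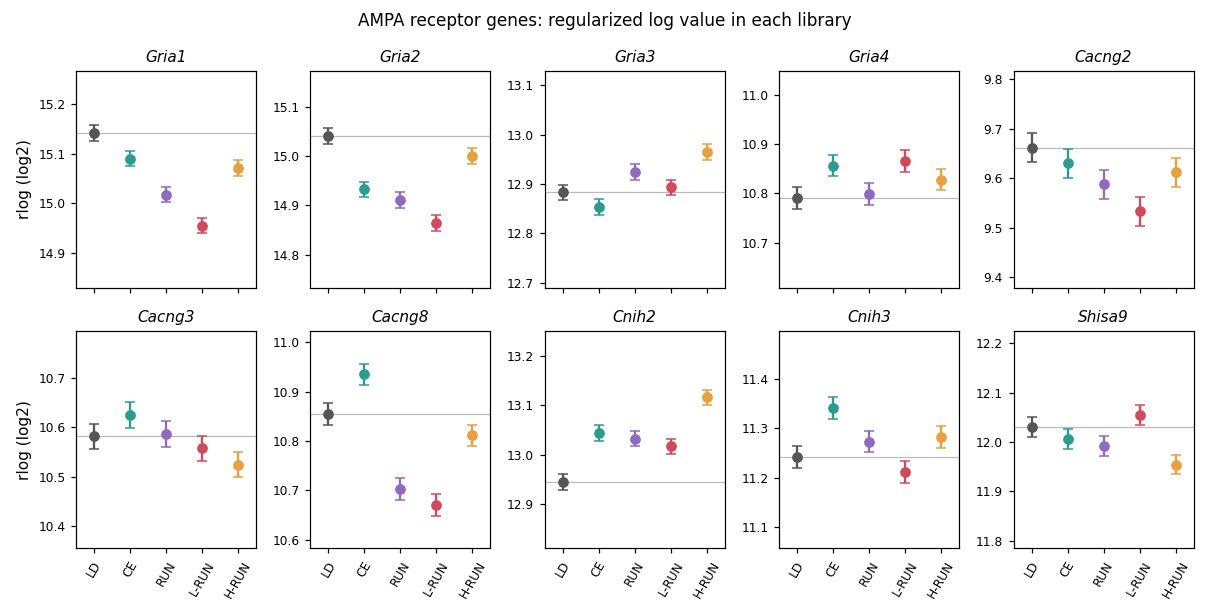
The rlog value (log2, vertical axis) of each AMPA receptor gene in the 5 libraries, with bars of 1 technical SD of a single library and a grey line at the LD value. Each panel spans the same height but starts at another value, and Gria1, Gria2, Cacng2 and Cacng8 are lowest in L-RUN.

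Gria1 (chromosome 11, 57011387 to 57330244, plus strand) encodes GluA1, the subunit whose phosphorylation and insertion accompany long-term potentiation (LTP). Its rlog value was 15.14 in LD, 15.09 in CE and 15.02 in RUN, with 14.95 for L-RUN and 15.07 for H-RUN. LD was highest and L-RUN lowest, and the RUN pool lay between its constituent L-RUN and H-RUN pools. The difference from LD was -0.052 in CE and -0.125 in RUN, with -0.188 for L-RUN and -0.070 for H-RUN (technical SD 0.0222), or -12.2% in L-RUN. Quantile normalization moved the Gria1 difference to -0.117 in CE and to -0.165 in H-RUN. The L-RUN difference was -8.46 technical SD, and its size exceeded that of 88% of expressed genes. CE and H-RUN, neighbours in the order of the libraries, were 0.018 apart, within the technical SD.

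Gria2 (chromosome 3, 80681450 to 80802835, minus strand) encodes GluA2, the subunit that sets calcium permeability. It had rlog values of 15.04 in LD, 14.93 in CE and 14.91 in RUN, with 14.86 for L-RUN and 15.00 for H-RUN. All EE libraries were below LD, with L-RUN lowest, as for Gria1. The difference from LD was -0.108 in CE and -0.130 in RUN, with -0.176 for L-RUN and -0.041 for H-RUN (technical SD 0.0222). H-RUN was the nearest to LD, at -1.86 technical SD. H-RUN and L-RUN differed by 0.135 for Gria2 and by 0.117 for Gria1.

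Gria3 and Gria4 did not share this order. Gria3 (chromosome X, 41400854 to 41678601, plus strand), which encodes the GluA3 partner of GluA2, had rlog values of 12.88 in LD, 12.85 in CE and 12.92 in RUN, with 12.89 for L-RUN and 12.97 for H-RUN. H-RUN was highest, 0.082 above LD (3.68 technical SD), and L-RUN was 0.010 above LD, within the technical SD. Gria4 (chromosome 9, 4417896 to 4796234, minus strand), whose GluA4 subunit gives fast gating and is prominent in interneurons, had 10.79 in LD, 10.86 in CE and 10.80 in RUN, with 10.87 for L-RUN and 10.83 for H-RUN. Its range of 0.075 was the smallest of the 10 genes and lower than that of most expressed genes (percentile 17.5). The RUN value of Gria4 was below both L-RUN and H-RUN, and its residual from the mixture, -0.048, was the largest in size among the 10 genes, beside a residual SD of 0.0267 in its decile. Of 6 interneuron markers, Gad1 and Gad2, which make GABA, differed from LD by -0.069 to 0.029. Sst, the gene of the peptide somatostatin, was called higher in CE (0.337) and L-RUN (0.302), and Lhx6 was at 0.237 in CE and 0.152 in L-RUN. Vip was lower than LD in both, at -0.111 in CE and -0.099 in L-RUN, and Pvalb was at 0.059 and -0.062. The median over the 6 markers was 0.042 in CE and -0.006 in L-RUN. Gria4 was highest in L-RUN and CE, and the part of interneurons in its values was not tested.

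Among the TARPs, Cacng8 varied most of all 10 genes. Cacng8 (chromosome 7, 3390683 to 3415648, plus strand) encodes TARP γ-8, the main TARP of the hippocampus. Its rlog value was 10.86 in LD, 10.93 in CE and 10.70 in RUN, with 10.67 for L-RUN and 10.81 for H-RUN. CE was highest, and RUN and L-RUN stood below the other 3 libraries. The difference from LD was 0.080 in CE and -0.152 in RUN, with -0.185 for L-RUN and -0.043 for H-RUN (technical SD 0.0308). L-RUN was thus -0.265 from CE, the largest difference found for any of these genes in the 8 comparisons, and still within 0.3. The range over the 5 libraries had percentile 92.4 among expressed genes.

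Cacng2 (chromosome 15, 77991748 to 78120028, minus strand), which encodes stargazin, the founding TARP, had rlog values of 9.66 in LD, 9.63 in CE and 9.59 in RUN, with 9.53 for L-RUN and 9.61 for H-RUN. It had the same highest and lowest libraries as Gria1 and Gria2, with an L-RUN difference of -0.129 (-3.09 technical SD), while the other groups stayed within 2 technical SD of LD. A730060N03Rik, on the opposite strand, overlaps 323 bases of Cacng2 exons, and whether the counting used strand is not given in the sources used here. Genes on the same strand overlap 111 exon bases of Gria2 (Gm25749), 91 of Cacng8 (Gm23450), 85 of Gria3 (Gm22413) and 19 of Gria4 (Gm23811). Cacng3 (chromosome 7, 122670492 to 122769393, plus strand), the gene of TARP γ-3, had 10.58 in LD, 10.63 in CE and 10.59 in RUN, with 10.56 for L-RUN and 10.52 for H-RUN. None of these differed from LD by over 2 technical SD, and the RUN value of Cacng3 lay above both L-RUN and H-RUN. The value of RUN was intermediate between both runner pools for 8 of the 10 genes, compared with 58.3% of expressed genes.

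The cornichons, which promote export of AMPA receptors from the endoplasmic reticulum and slow their deactivation, were mostly at or above LD. Cnih2 (chromosome 19, 5092868 to 5098521, minus strand) had an rlog value of 12.94 in LD, 13.04 in CE and 13.03 in RUN, with 13.02 for L-RUN and 13.12 for H-RUN. All EE libraries were above LD, and H-RUN stood above the other 3. The difference from LD was 0.099 in CE and 0.088 in RUN, with 0.073 for L-RUN and 0.172 for H-RUN (technical SD 0.0222). Yif1a, on the opposite strand, overlaps 14 bases of Cnih2 exons. The H-RUN value is a level 12.7% above LD, and its size exceeded that of 95% of expressed genes. Cnih3 (chromosome 1, 181352628 to 181460641, plus strand) had 11.24 in LD, 11.34 in CE and 11.27 in RUN, with 11.21 for L-RUN and 11.28 for H-RUN. In CE it was 0.100 above LD (3.23 technical SD), and the running groups were within 2 technical SD of LD.

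Shisa9 (chromosome 16, 11984113 to 12270902, plus strand) encodes CKAMP44, an auxiliary protein known in granule cells, where it slows recovery of AMPA receptors from desensitization. Its rlog value was 12.03 in LD, 12.01 in CE and 11.99 in RUN, with 12.05 for L-RUN and 11.95 for H-RUN. H-RUN was lowest, -0.076 from LD (-2.69 technical SD), and the other groups were within 2 technical SD of LD. Between the runners, Shisa9 was -0.100 in H-RUN relative to L-RUN. The median of this difference was 0.075 over the 10 genes and 0.003 over all expressed genes.

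**Figure D3:**
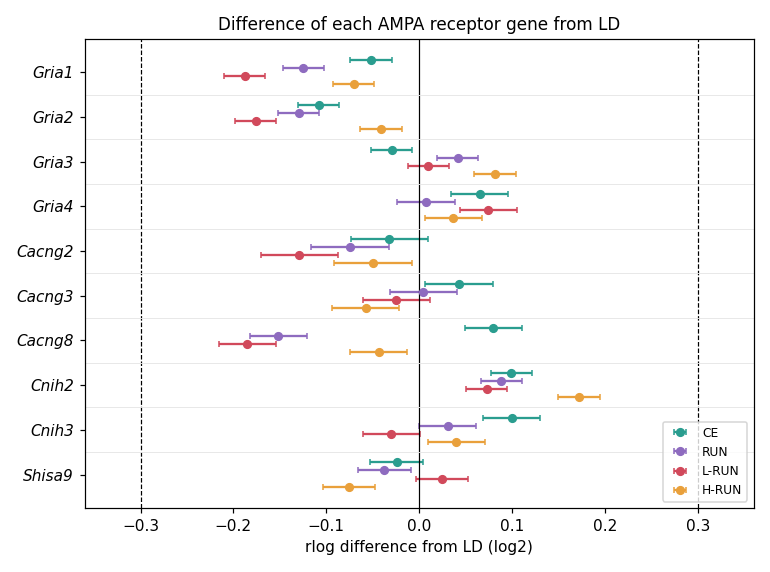
The rlog difference from LD (log2, horizontal axis) of each AMPA receptor gene in CE, RUN, L-RUN and H-RUN, with bars of 1 technical SD and dashed lines at a size of 0.3. Gria1, Gria2, Cacng2 and Cacng8 lie furthest to the left in L-RUN (-0.129 to -0.188), and Cnih2 lies to the right in all groups (0.073 to 0.172).

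By library, L-RUN held the lowest value for 5 of the 10 genes and LD the highest for 3. Over all expressed genes, L-RUN was the lowest library for 28.1% of genes and LD the highest for 28.1%. The 5 genes lowest in L-RUN were Gria1, Gria2, Cacng2, Cacng8 and Cnih3. CA1 markers had a median difference from LD over 4 genes of 0.068 in CE and -0.167 in RUN, with -0.333 for L-RUN and -0.068 for H-RUN. In CE this median was above LD, as were Cacng8 (0.080) and Cnih3 (0.100), while Gria1, Gria2 and Cacng2 were below LD. In H-RUN the markers were split, with Fibcd1 at -0.519 and Wfs1 at 0.178. All 4 were lower in L-RUN than in LD, with differences between -0.456 and -0.190, and Fibcd1, Wfs1 and Mpped1 were called. Leptomeningeal markers moved the other way in L-RUN, where 5 of 7 were called higher, and oligodendrocyte markers had a median of -0.212 there. The part of these cell types in the values of the AMPA receptor genes was not tested. Of the 6 granule cell markers, Prox1 (-0.407) was called lower and C1ql2 (0.370) higher in L-RUN. Dsp (-0.278), Tdo2 (-0.181) and Lct (-0.117) were also below LD there, while Calb1 (0.038) was above it. The median over the 6 markers was -0.149 for L-RUN and -0.145 for CE, against -0.037 for H-RUN and -0.047 for RUN. The part of granule cells in the AMPA receptor values was not tested either. In pooled tissue, fewer cells of a type and less RNA per cell cannot be told apart.

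Ratios between genes of the same library are not affected by a factor that scales a whole library. The log2 ratio of Gria1 to Gria2 was 0.10 in LD, 0.16 in CE and 0.11 in RUN, with 0.09 for L-RUN and 0.07 for H-RUN. Its differences from LD (-0.029 to 0.056) were within 2 technical SD (0.0314) on the deposited scale. With quantile normalization, which acts on each value by its rank, the ratio was -0.064 from LD for L-RUN and -0.092 for H-RUN. The technical SD was estimated on the deposited scale only, so that these values were not set against it. Cnih2 relative to Gria2 was -2.10 in LD, -1.89 in CE and -1.88 in RUN, with -1.85 for L-RUN and -1.88 for H-RUN. LD was thus the lowest library, and the 4 EE libraries were 0.208 to 0.249 above it (technical SD 0.0314). Gria3 relative to Gria2 was also above LD, by 0.079 in CE and 0.171 in RUN, with 0.186 for L-RUN and 0.123 for H-RUN. Cnih2 relative to Cacng8 was above LD by 0.240 in RUN and, by pool, 0.257 for L-RUN and 0.215 for H-RUN, but by 0.019 in CE, within the technical SD of 0.0380. The denominators were chosen with the values known.

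Transcript length moved with these differences. Across 12765 expressed genes with a known transcript length, the difference from LD had a Spearman correlation with the length of the longest transcript of -0.33 in CE and -0.49 in RUN, with -0.51 for L-RUN and -0.37 for H-RUN. All 4 share the LD library. Gria2 has the longest transcript of the 10 genes (10371 bases) and Cnih2 the shortest (1343 bases). The trend at these lengths was -0.135 for Gria2 and 0.078 for Cnih2 in L-RUN. The shortest coding transcript of Gria2 with a RefSeq match has 4026 bases. At 4326 bases, the length of Shisa9, the trend in L-RUN was -0.031. The values of Gria2 and of its ratios without the trend therefore depend on the length taken for it. With the trend removed, Gria2 was -0.041 from LD in L-RUN, -0.029 in RUN and -0.039 in CE, and Cnih2 was -0.005 in L-RUN but still 0.135 in H-RUN. The ratio of Cnih2 to Gria2 then differed from LD by 0.036 in L-RUN and 0.055 in RUN, and by 0.101 in CE and 0.109 in H-RUN. That of Gria3 to Gria2 was above LD by 0.038 in CE and 0.112 in RUN, with 0.105 for L-RUN and 0.084 for H-RUN. For Gria1 to Gria2 the ratio was -0.086 from LD for L-RUN and -0.064 for H-RUN. The technical SD holds no error of the trend, so that these ratios were not set against it. For Gria2 in H-RUN the sign changed, to 0.026. Gria4 (5441 bases) stood at 0.134 in L-RUN without the trend, which was -0.059 at that length. Its shortest coding transcript with a RefSeq match has 2338 bases, and that of Gria3 has 2667 bases. At 2668 bases, the length of Cnih3, the trend in L-RUN was 0.021. The value of Gria4 and the ratio of Gria3 to Gria2 without the trend therefore also depend on the lengths taken. Gria1 (5546 bases) was still at -0.127 in L-RUN and -0.078 in RUN. Cacng8, whose longest transcript has 1897 bases, lay against the trend, and its value without it was -0.237 in L-RUN and -0.193 in RUN. What gives the libraries this trend was not tested.

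**Figure D4:**
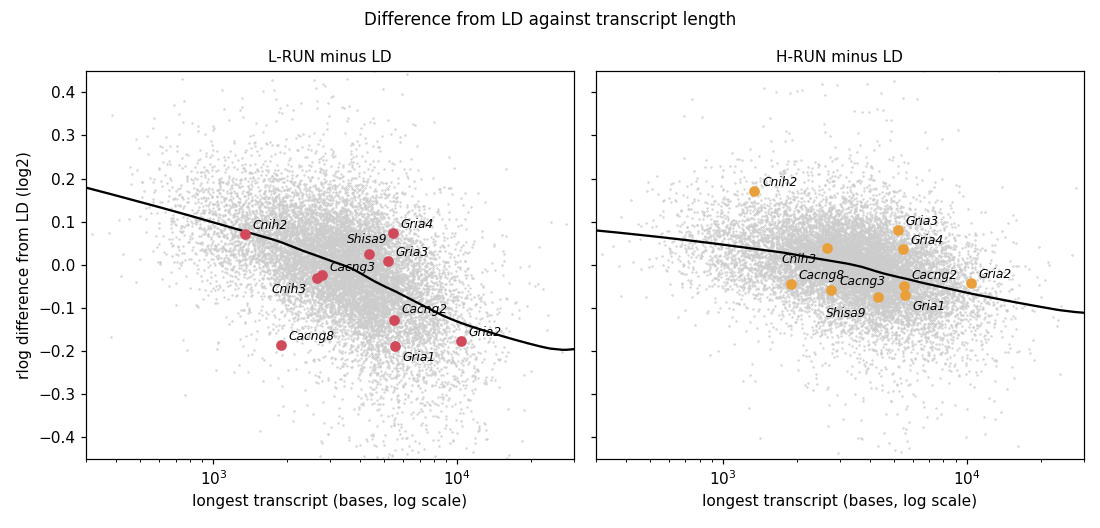
The rlog difference from LD (log2, vertical axis) against the longest transcript (bases, log axis) for expressed genes (grey points) in L-RUN (left) and H-RUN (right), with the lowess curve in black and the 10 AMPA receptor genes as coloured points. Genes outside a difference of 0.45 are not drawn. In L-RUN, Gria2 and Cnih2 lie close to the curve and Cacng8 lies below it, 0.237 lower.

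Levels of different genes can be compared only per length. With log2 of the length in kilobases subtracted, using the longest transcript, the mean over the 5 libraries was 12.60 for Cnih2, 12.58 for Gria1, 11.58 for Gria2, 10.52 for Gria3, 9.89 for Shisa9, 9.87 for Cacng8, 9.85 for Cnih3, 9.10 for Cacng3, 8.38 for Gria4 and 7.14 for Cacng2. With the shortest coding transcript that has a RefSeq match, Gria2 (4026 bases) was first at 12.94, ahead of Gria1 at 12.63 and Cnih2 at 12.60. Under both lengths, Gria1, Gria2 and Cnih2 were the 3 highest genes, and Cacng2 was the lowest.

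The other genes of AMPA receptor assembly and traffic were taken from a list of 49, of which 48 were expressed and Shisa8 was not analysed here. At 0.3, 1 of the 48 was called higher and 1 lower in CE, 1 higher and 3 lower in RUN, 0 higher and 5 lower in L-RUN, and 1 higher and 1 lower in H-RUN. Over all expressed genes the share called in either direction was 0.598% in CE and 1.31% in RUN, and it was 3.13% for L-RUN and 0.827% for H-RUN. Frrs1l, which assists assembly of AMPA receptors in the endoplasmic reticulum, was the lowest of them in every running group. Its rlog value was 12.11 in LD, 11.87 in CE and 11.61 in RUN, with 11.44 for L-RUN and 11.75 for H-RUN. The difference from LD was -0.231 in CE and -0.496 in RUN, with -0.661 for L-RUN and -0.352 for H-RUN (technical SD 0.0282), and Frrs1l was called in each running group. Of the 6 genes for assembly, the other 5 were within 0.3 of LD in all groups.

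Of 15 other auxiliary or associated proteins, 1 was called. Shisa6, a relative of Shisa9, was -0.306 from LD in L-RUN, and the other 3 EE libraries were between -0.210 and -0.097. Of 11 scaffolding and trafficking genes, Arc, an activity-induced gene whose protein promotes AMPA receptor endocytosis, was called lower in RUN (-0.334) and L-RUN (-0.453) and was -0.045 in CE and -0.154 in H-RUN. Of the 3 neuronal pentraxins, which gather AMPA receptors at synapses, Nptx2 was called higher in RUN (0.324) and H-RUN (0.420), with 0.203 in L-RUN and 0.010 in CE. The receptor-like Nptxr was called higher in CE (0.336), with -0.262 in L-RUN. Adarb1, the gene of ADAR2, had rlog values between 12.40 in L-RUN and 12.53 in LD, and Adar, the gene of a related enzyme, between 12.45 and 12.48.

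The NMDA and kainate receptor genes, the other ionotropic glutamate receptors, had larger differences among their members. Of 7 NMDA receptor subunits, 1 was called in CE, 3 in RUN and, by pool, 3 for L-RUN and 1 for H-RUN, all of them lower than LD, with the lowest value for Grin2a in L-RUN (-0.880). Of 7 kainate receptor subunit and Neto genes, Grik3 was called lower in RUN (-0.455), L-RUN (-0.372) and H-RUN (-0.536). Expressed genes passed this threshold in 0.598% to 3.13% of cases in the 4 groups. The medians in L-RUN were -0.027 for the AMPA receptor genes, -0.079 for NMDA and -0.156 for kainate. Whether the families differ was not tested.

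**Figure D5:**
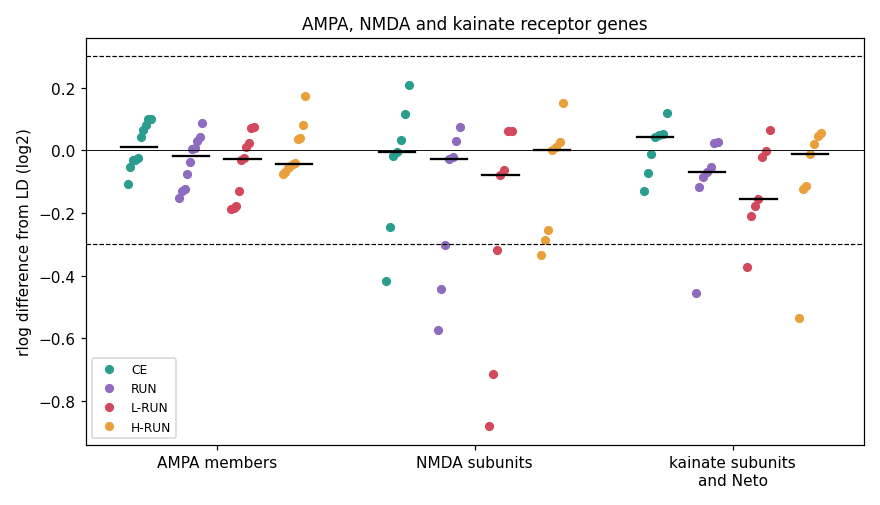
The rlog difference from LD (log2, vertical axis) of each gene (points) of the AMPA, NMDA and kainate receptor families in the 4 EE groups, with black lines at the medians and dashed lines at a size of 0.3. The AMPA receptor genes lie between -0.188 and 0.172, while Grin2a reaches -0.880 in L-RUN.

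For the 2 AMPA receptor genes of the widest range, the most similar genes were sought by the root mean square distance between their 4 differences from LD and those of every other expressed gene. For Cacng8, these were Kifc3 (distance 0.013), Spen (0.018) and Clstn3 (0.019). For Gria1, they were Psmd11 (0.005), Hdlbp (0.008) and BC068281 (0.008). Such distances are below the technical SD of Gria1 and Cacng8, and they rest on 5 libraries of which 3 share mice.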

How the data were processed

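RNA of the DG was sequenced as 1 pooled library per group. According to the methods and the submitters' processing notes, the authors mapped trimmed reads to mm10 with TopHat2 2.0.10, obtained counts per RefSeq gene from HTSeq, and normalized all libraries at once in DESeq2 1.10.1. The deposited values are rlog values on the log2 scale; counts were not used here, depth is unknown, and the shrinkage could not be undone. Conditions were taken from sample titles and pool sizes from the methods.

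Differences were subtractions of rlog values, called at 0.3, the cut-off of the methods. For the technical SD, linear values of the L-RUN and H-RUN pools were averaged, and their log2 was subtracted from RUN (median absolute deviation, per expression decile, residual variance taken as 1.5 times that of 1 library). Lowess curves (fraction 0.3) gave the trend with transcript length. Positions, lengths and sequences were from GENCODE M21 (GRCm38), in which 94.2% of expressed genes had a length. The members and gene lists were chosen with earlier results of these data known. Named genes were the 10 members, list genes past 0.3, and the 3 genes most like each of the 2 members of widest range. Alternatives were sizes of 0.2, 0.4 and 2 technical SD, centring, quantile normalization, a minimum mean of 7 or none, LD and CE averaged as the baseline, the mixture of log values, and removal of the length trend. Quantile normalization and the length trend were applied to ratios after seeing the data. The calculation was checked on simulated data. Python 3.11.15, numpy 2.4.6, pandas 2.3.3, statsmodels 0.14.6 and biopython 1.88 were used.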

Additional observations from a re-analysis of the deposited data

Results flagged for a closer look

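On the deposited scale, the low and the high runners lay on opposite sides of LD for Cnih3 and Shisa9. How often other expressed genes did so was not counted. Relative to LD, Cnih3 was -0.030 in the L-RUN pool and 0.040 in the H-RUN pool, a difference of 0.070 between the pools, and Shisa9 was 0.025 in L-RUN and -0.076 in H-RUN, a difference of -0.100. The difference between the pools was not tested, and 3 of these 4 values were within 2 technical SD of LD. The split also depended on processing. With quantile normalization, Cnih3 was 0.0033 in L-RUN, on the same side as H-RUN. Without the trend with transcript length, Gria2 (-0.041 in L-RUN, 0.026 in H-RUN) and Cnih2 (-0.005 and 0.135) lay on opposite sides as well.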

How the results depend on the processing

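The count of AMPA receptor genes called against LD was 0 in each EE group at sizes of 0.2, 0.3 and 0.4, with differences centred on their median, with quantile normalization, with a minimum mean of 7 or none, without the trend with transcript length and, for the running groups, with LD and CE averaged as the baseline. A limit of 2 technical SD, chosen after seeing the data, gave 6 genes in CE, 4 in RUN and, by pool, 6 for L-RUN and 4 for H-RUN, because it lies below 0.3. The median of the 10 genes moved by less than the technical SD of 0.0365 in these settings, except that removal of the length trend took it from -0.042 to 0.0035 in H-RUN. Quantile normalization turned the sign of the median in RUN and in L-RUN, to 0.0026 in both. Of 40 single differences, removal of the trend moved 24 by over 1 technical SD and changed the sign of 3, with the largest move for Gria2 in L-RUN, and quantile normalization moved 8 and changed the sign of 2, with the largest move for Gria1 in H-RUN, which became -0.165. The baseline of LD and CE moved 18 of 30 and changed the sign of 5. No paired analysis was possible because each group had 1 library, and no library could be left out for the same reason. Shrinkage and unknown depth limit all values, and no value covers differences between mice.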

Other observations

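Some kinases and phosphatases that act on AMPA receptors had larger differences than the receptor genes themselves in some libraries. Of 11 such genes, Camk2a, the gene of the main LTP kinase, had an rlog value of 16.81 in LD, 16.78 in CE and 16.7 in RUN, with 16.50 for L-RUN and 16.81 for H-RUN, a difference from LD of -0.308 in L-RUN and 0.002 in H-RUN. Prkcb, a protein kinase C gene, was -0.305 from LD in RUN and -0.557 in L-RUN. Ppp1cb, a catalytic subunit of protein phosphatase 1, was -0.405 in CE and between -0.235 and -0.189 in the running groups. The other 8 were within 0.3 of LD in all groups. Over all expressed genes, 0.598% were called in CE, 1.31% in RUN, 3.13% for L-RUN and 0.827% for H-RUN. The median over the 11 genes was -0.032 in CE, -0.036 in RUN, -0.109 for L-RUN and 0.032 for H-RUN. Each value rests on 1 library, and no test was possible.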
